A study of Mus musculus with 6 samples.

Results

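Neurotransmitter receptor subunit genes were followed in mouse E14 embryonic stem cells given an shRNA against REST. They were taken as every probe whose gene symbol, in the platform's probe annotation, belonged to the nicotinic (Chrn), muscarinic (Chrm), GABA-A (Gabr), glycine (Glra), AMPA (Gria), kainate (Grik), NMDA (Grin), metabotropic glutamate (Grm), serotonin (Htr) or dopamine (Drd) receptor names. This gave 78 of the 16593 genes with a symbol, measured by 108 of the 25697 probes on the array. RNA was measured on 6 Illumina bead arrays, 3 from cells given an shRNA against REST and 3 from cells given the empty pSuper vector, both for 72 h. E14 cells are a pluripotent line, pSuper is a plasmid from which short hairpin RNAs are transcribed, and an shRNA lowers the transcript it matches. No allele, clone or drug selection is named in the labels, and all 6 samples share the line, the vector backbone and the time. The labels do not state whether the 3 samples of a group were grown apart, so a p-value here is set against a sample-to-sample spread that could be technical alone.

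REST is a zinc finger repressor that sits on a long DNA element called RE1 and recruits histone deacetylases and demethylases, keeping many neuronal genes silent outside neurons. Receptors for neurotransmitters are of 2 kinds. Ionotropic receptors are ion channels built from several subunits, and many of these subunits need a partner subunit in the same cell. Metabotropic receptors act through G proteins. Several receptor genes carry an RE1, and RE1 elements were described early in the rat genes for the AMPA subunit Gria2 and the muscarinic receptor Chrm4. Nicotinic and GABA receptors are also used outside neurons, as in skeletal muscle and early embryonic cells.

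Most receptor probes gave no signal in either group. Of the 108, 77 (71.3%) were not above background on any array, and these covered all probes of the NMDA (5), metabotropic glutamate (5) and glycine (4) families. A probe counted as detected where its detection p was under 0.05, and intensities are linear values in which 0 is the array's own background. The 77 silent probes ranged from -21.1 to 16 with a median of -1.15, while the dimmest detected probe of an array stood at 14.3 to 16.5. At these probes no change could be seen at this sensitivity, which does not show that their genes stayed silent, and for some of them, Chrnb2 among them, another probe was measured. Probes of 51 genes were detected on no array.

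The REST shRNA arrays detected 19, 20 and 23 receptor probes, against 16, 20 and 14 on the vector control arrays. The groups met at 20, so they overlapped. As shares these were 17.6% to 21.3% in REST shRNA and 13% to 18.5% in control, against 46.4% to 49.0% of all probes on the array. In all, 26 probes were detected on at least 1 REST shRNA array and 24 on at least 1 control array. By probe, 13 of the 108 (12.0%) were detected on more REST shRNA than control arrays, as were 6.37% of all probes, and 5 (4.63%) on fewer, as were 6.37% of all probes. No test was made of these counts. At a stricter detection p of 0.01 the arrays detected 11 to 14 receptor probes in REST shRNA and 9 or 10 in control.

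**Figure D1:**
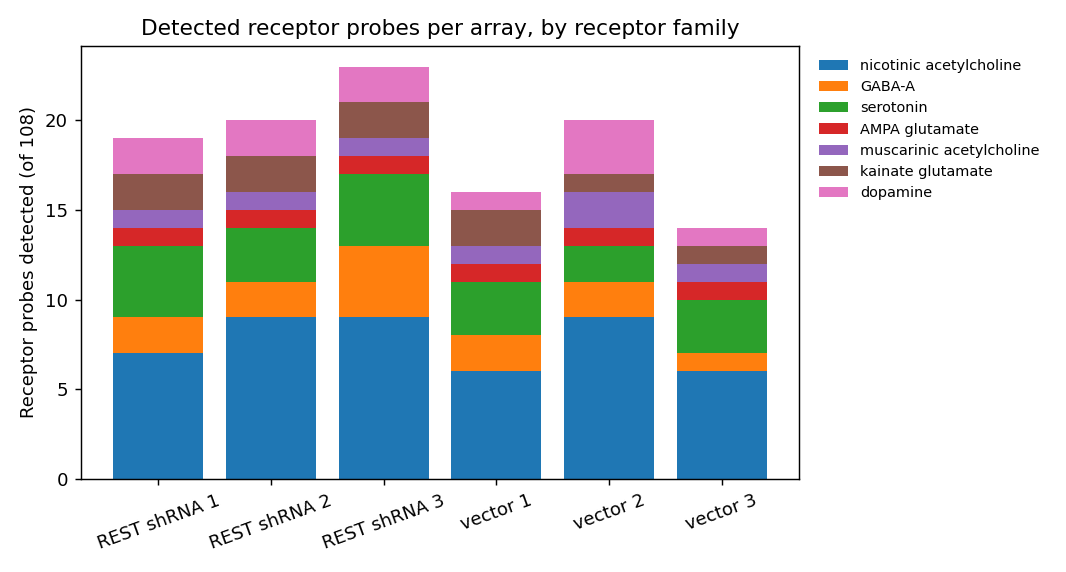
Number of the 108 receptor probes with a detection p under 0.05 on each array, stacked by family, REST shRNA arrays left. The totals are 19, 20 and 23 in REST shRNA and 16, 20 and 14 in vector control, and nicotinic subunits make the largest block on every array.

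The promoters were examined for the element REST binds. RefSeq windows of 300 bases (250 before to 50 after each start, GRCm38.p6) were found for 62 of the 78 genes, 73 windows in all, some overlapping. The core of the RE1 consensus, searched on both strands, was in 0 of the 73 windows and in 12 of 32851 windows of all genes (0.0365%). The full consensus, which contains the core, was scored on both strands by its 19 fixed letters. At least 15 letters matched in 3 receptor windows (4.11%), against 75 of all windows (0.228%). These belonged to Gria2 with 17 letters, and Chrm4 and Htr5a with 16 each. They are shown first because they hold the closest matches, and those of Chrnb2 and Chrm3 follow because these genes had the 2 largest rises. Each is written 5′ to 3′ on the gene's strand, and capitals mark the best match.
Gria2, chr3:80802786-80803085, minus strand: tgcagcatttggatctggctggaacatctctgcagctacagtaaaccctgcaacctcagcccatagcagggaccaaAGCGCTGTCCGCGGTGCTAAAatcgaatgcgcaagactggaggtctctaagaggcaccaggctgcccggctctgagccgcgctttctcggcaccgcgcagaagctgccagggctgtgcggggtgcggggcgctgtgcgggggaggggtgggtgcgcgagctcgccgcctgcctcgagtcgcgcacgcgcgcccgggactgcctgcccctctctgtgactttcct
Chrm4, chr2:91921939-91922238, plus strand: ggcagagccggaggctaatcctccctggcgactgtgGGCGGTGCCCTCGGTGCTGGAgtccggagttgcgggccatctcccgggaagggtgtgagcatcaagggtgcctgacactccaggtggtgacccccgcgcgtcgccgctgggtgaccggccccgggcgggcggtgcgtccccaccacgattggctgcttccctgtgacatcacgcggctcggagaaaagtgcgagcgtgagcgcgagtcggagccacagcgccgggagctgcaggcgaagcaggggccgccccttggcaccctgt
Htr5a, chr5:27841697-27841996, plus strand: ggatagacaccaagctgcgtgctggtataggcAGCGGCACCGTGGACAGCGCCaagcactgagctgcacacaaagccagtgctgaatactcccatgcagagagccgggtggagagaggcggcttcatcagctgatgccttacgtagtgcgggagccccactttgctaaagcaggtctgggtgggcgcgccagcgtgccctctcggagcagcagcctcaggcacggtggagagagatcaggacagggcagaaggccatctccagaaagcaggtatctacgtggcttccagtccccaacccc
Chrnb2, chr3:89764583-89764882, minus strand: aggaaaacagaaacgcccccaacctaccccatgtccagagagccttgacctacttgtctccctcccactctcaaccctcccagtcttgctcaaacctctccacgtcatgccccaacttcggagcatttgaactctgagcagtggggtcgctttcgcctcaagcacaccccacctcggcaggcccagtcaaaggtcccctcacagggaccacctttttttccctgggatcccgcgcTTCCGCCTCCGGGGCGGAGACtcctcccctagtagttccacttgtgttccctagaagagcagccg
Chrm3, chr13:10360754-10361053, minus strand: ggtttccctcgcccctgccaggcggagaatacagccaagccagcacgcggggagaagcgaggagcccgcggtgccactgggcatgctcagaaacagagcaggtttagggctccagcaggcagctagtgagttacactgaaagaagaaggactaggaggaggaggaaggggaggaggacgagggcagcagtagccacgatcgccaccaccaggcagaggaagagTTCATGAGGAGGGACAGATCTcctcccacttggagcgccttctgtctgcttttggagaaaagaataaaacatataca
The match spans positions -174 to -154 in Gria2, -214 to -194 in Chrm4 and -218 to -198 in Htr5a, with the first base of the gene as 1. It lies on the strand opposite to the gene in Gria2 and Chrm4. In Chrnb2 and Chrm3 the best match had 12 letters, a score reached or passed by 36.4% of all windows. A match of letters is a description, and a window without one says nothing of REST sites further away.

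**Figure D2:**
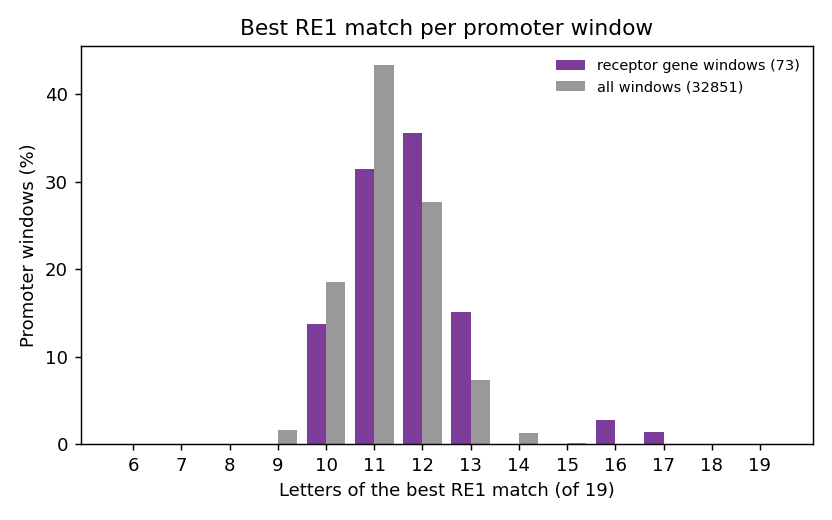
Share of promoter windows by the number of matching letters in their best RE1 match, of 19 fixed letters, for 73 receptor gene windows and 32851 windows of all genes. The 3 receptor windows at 16 and 17 letters stand apart from the rest, which reach 13 at most.

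Of the 3 genes with a close match, only Chrm4 was detected at all, on a single array. Gria2, the AMPA subunit that makes the channel impermeable to calcium, read 0.5, -2.8 and 5.2 in REST shRNA and 5.3, -7.7 and -5.0 in control at its first probe, and its second probe was as dim. Chrm4, a muscarinic receptor that inhibits adenylyl cyclase, read 11, 10.1 and 8.9 in REST shRNA and 12.8, 20.7 and 8.7 in control, above background on 1 control array. The serotonin receptor Htr5a read 7.1, 7.2 and 5.1 in REST shRNA and -1.3, 3.2 and 8.2 in control. In each, the groups overlapped.

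Levels could be tested for 19 receptor probes of 17 genes, those detected on at least 3 of the 6 arrays. This is 17.6% of the receptor probes, against 48.3% of all probes. By limma over all 12406 tested probes, 3 receptor probes rose, 2 fell and 14 did not pass (Benjamini-Hochberg adjusted p under 0.05). That is 26.3% called, against 25.9% of all tested probes (12.8% higher and 13.1% lower), so as a class the receptor probes were called about as often as any others. In the authors' ratios the split over all probes was 2118 higher and 907 lower, against 1590 and 1619 here. The median log2 change of the receptor probes was 0.21, against -0.01 over all tested probes, but this depended on the filter. It was 0.018 over all 108 receptor probes with no filter, -0.30 over the 6 that passed the stricter filter (detection p under 0.01 on all 6 arrays), and 0.11 without control replicate 2 and 0.13 without control replicate 3. Groups did not overlap for 7 of the 19 (36.8%), against 43.3% of all tested probes. One member, Gabrd, was detected on its REST shRNA arrays only. Chrnb2, Drd2, Htr3a, Grik2 and Grik4 also met the filter by their REST shRNA arrays and would not have met it by their control arrays. In all, 7 of the 19 were detected on more REST shRNA than control arrays, so the median holds probes that the filter admitted because they were higher there.

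**Figure D3:**
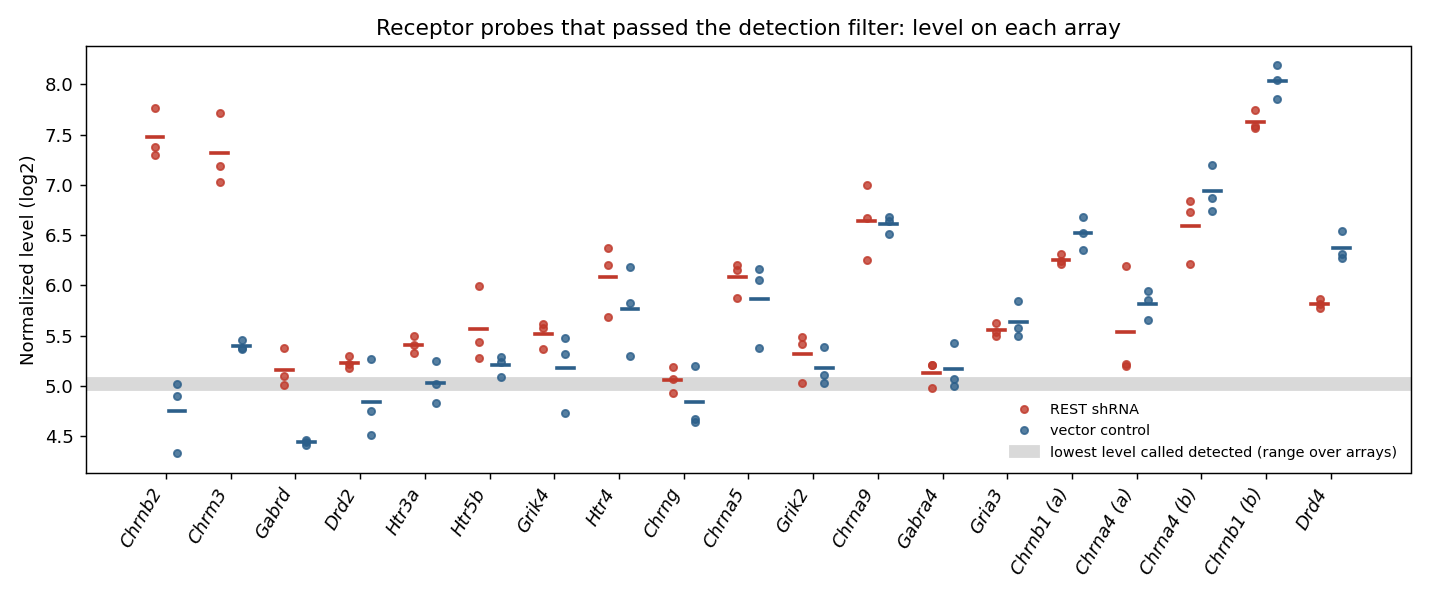
Normalized log2 level of the 19 tested receptor probes on each array, REST shRNA left of vector control, with a bar at each group's mean; (a) and (b) are separate probes of one gene. Levels of different probes cannot be set against each other. Chrnb2 and Chrm3 show the widest gaps, with no overlap between groups; control arrays lie within or below the grey band of the detection limit for Chrnb2 and above it for Chrm3.

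The largest rise was that of Chrnb2, the beta subunit of the main high-affinity nicotinic receptor of the brain. Its intensity was 209.7, 150.2 and 140.0 in REST shRNA cells and 12.7, 15.2 and -11.8 in control cells. Every REST shRNA array lay far above background, while control arrays 1 and 2 were at its edge, only the second of them counting as detected, and control array 3 was well below it. The normalized level averaged 7.48 ± 0.25 in REST shRNA and 4.75 ± 0.37 in control on the log2 scale (SD, n = 3 each), a log2 change of 2.73 ± 0.20 (SE; limma adjusted p = 7.97e-05). The filter admitted this probe by its REST shRNA arrays, so that p is not free of the filter. With all 25697 probes fitted the limma adjusted p was 0.000312. Chrnb2 ranked 7 among the rises of all 12406 tested probes. The size depends on how background is counted. The fitted fold was 6.65, and 5.53 with control arrays held at their detection limit. The plain ratio of mean intensities was 31.1, but its control mean of 5.37 is close to 0. In the authors' deposited ratios, made from the same arrays, Chrnb2 stood at 7.50, 5.67 and 5.47 in REST shRNA and at 1.21, 1.29 and 0.516 in control.

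The other Chrnb2 probes were dim. One read 12.2, 4.2 and 23.4 in REST shRNA and -2.1, -0.5 and -0.8 in control, with no overlap but a single detected array, and did not pass when all 25697 probes were fitted (log2 change 0.43, limma adjusted p = 0.138). The third read 2.0, 9.4 and 12.6 in REST shRNA and 12.7, 5.5 and -0.6 in control, and was detected on none. The rise of Chrnb2 was therefore measured by 1 of its 3 probes.

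The alpha subunit Chrna4, the usual partner of Chrnb2 in the brain, was already expressed and did not pass the test. Its first tested probe read 92.8, 99.1 and 57.8 in REST shRNA and 107.2, 86.9 and 128.3 in control. The log2 change was -0.34, with a 95% interval of -0.76 to 0.07 (limma adjusted p = 0.204). Its second read 58.9, 21.1 and 21.4 in REST shRNA and 44.4, 32.8 and 43.8 in control, with a log2 change of -0.28 (-0.84 to 0.27; adjusted p = 0.436). Without REST shRNA replicate 1, whose value of 58.9 stands apart from the others of its group, the second probe passed as lower (-0.61; adjusted p = 0.0163). The remaining Chrna4 probe was detected on no array. The groups overlapped at both tested probes.

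Chrm3, a muscarinic receptor that raises intracellular calcium through Gq, had the second largest rise. It read 115.7, 129.7 and 196.0 in REST shRNA and 25.5, 26.7 and 24.4 in control. All 6 arrays were above background, so a level was measured on both sides. The control arrays were tight, the REST shRNA arrays spread upwards with the third the highest, and the groups did not overlap. The log2 level averaged 7.31 ± 0.36 in REST shRNA and 5.40 ± 0.05 in control (SD, n = 3 each), a log2 change of 1.92 ± 0.17 (SE; limma adjusted p = 0.000226) or 3.78-fold. As a ratio of mean intensities, with no offset added, it was 5.76-fold. The authors' deposited ratios were 1.69, 1.88 and 2.77 in REST shRNA and 0.607, 0.613 and 0.592 in control. The other muscarinic receptors, Chrm1, Chrm2, Chrm4 and Chrm5, did not pass the filter.

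The third rise was that of Gabrd, the delta subunit of GABA-A receptors that lie outside synapses and carry tonic inhibition. It read 16.1, 26.1 and 18 in REST shRNA, just above the detection limit on every array, and -4.3, -5.7 and -3.4 in control, below it on every array. Its fold is therefore a lower bound, at least 1.11-fold (limma adjusted p = 0.00381, log2 change 0.72 ± 0.12, SE, n = 3 per group). Since the filter admitted this probe only through the arrays where it was high, that p is not free of the filter, and with all 25697 probes fitted it was 0.00578. A second Gabrd probe read 14.3, 14.2 and 22.8 in REST shRNA and -1.4, -8.2 and 5.4 in control. It was detected on 1 array and so was not among the 19, but with all 25697 probes fitted it passed (log2 change 0.54, limma adjusted p = 0.0257). Detection on all 3 REST shRNA arrays and no control array, as at the first probe, occurred for 0.339% of all probes, and the converse for 0.288%. Gabra4, the alpha subunit found with delta in the thalamus, read 15.4, 21.3 and 21.2 in REST shRNA and 15.5, 25.9 and 16.4 in control (log2 change -0.03, 95% interval -0.35 to 0.28; limma adjusted p = 0.878). Gabra3, below the filter, read 12.3, 12.8 and 11.4 in REST shRNA and 8.6, 16.6 and 20.5 in control. Of the other GABA-A probes, each was detected on 1 array at most.

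Drd4, a dopamine receptor of the D2-like class, which inhibits adenylyl cyclase, fell. It read 42.2, 39.1 and 42.5 in REST shRNA and 65.1, 60.4 and 74.4 in control. Both groups were tight and did not overlap. The log2 level averaged 5.82 ± 0.05 in REST shRNA and 6.37 ± 0.15 in control (SD, n = 3 each), a log2 change of -0.56 ± 0.11 (SE; limma adjusted p = 0.00788). Drd2, of the same class, did not pass, at 22.1, 20.4 and 23.6 in REST shRNA and -0.5, 21.8 and 7.8 in control (log2 change 0.39, 95% interval -0.01 to 0.79; adjusted p = 0.142). Its second control array overlapped the REST shRNA arrays, and without that array Drd2 passed as higher (0.60; adjusted p = 0.0190). Drd1, Drd3 and Drd5 did not pass the filter.

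Chrnb1, the beta subunit of the nicotinic receptor of skeletal muscle, fell at 1 of its 2 probes. That probe read 181.4, 201.9 and 173.0 in REST shRNA and 224.8, 261.4 and 239.9 in control, with no overlap (log2 change -0.40 ± 0.12, SE, n = 3 per group; limma adjusted p = 0.0394). The other read 65.0, 60.4 and 57.8 in REST shRNA and 80.4, 82.7 and 63.2 in control, also without overlap of the normalized values, and did not pass (-0.26, 95% interval -0.52 to 0.00; adjusted p = 0.130). The call was a narrow one. It was lost in the authors' ratios (-0.24, adjusted p = 0.205), with no filter (adjusted p = 0.0529) and on leaving out any single array other than control replicate 1 (adjusted p of 0.0569 to 0.127).

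The muscle subunit that is found in the fetal receptor, Chrng, read 13.8, 20.9 and 17.3 in REST shRNA and 5.7, 20 and 4.3 in control, an overlap, and did not pass (log2 change 0.23, 95% interval -0.14 to 0.59; limma adjusted p = 0.340). Chrna1, Chrnd and Chrne, the remaining muscle subunits, did not pass the filter. The muscle genes Myod1, Myog, Acta1 and Ckm were not detected on any array, and among the muscle markers only Des was (144 to 208 summed intensity in REST shRNA, 235 to 260 in control, over 5 markers with a probe). Des fell (limma adjusted p = 0.0236), a call lost in the authors' ratios (0.0543).

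Chrna5, Chrna3 and Chrnb4 are neighbours in the genome and together form ganglionic nicotinic receptors. Chrna5 was detected on all 6 arrays, at 59.4, 55.8 and 42.8 in REST shRNA and 53.5, 24.8 and 53.8 in control, and did not pass (log2 change 0.21, 95% interval -0.24 to 0.67; limma adjusted p = 0.468). Chrna3 and Chrnb4 were detected on no array. Chrna9, a subunit of the receptor on cochlear hair cells, read 113.4, 86.4 and 60.4 in REST shRNA and 87.6, 83.0 and 72.8 in control (log2 change 0.03, 95% interval -0.37 to 0.42; adjusted p = 0.923). Its partner Chrna10 was detected on 1 control array. The groups overlapped for both Chrna5 and Chrna9.

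Among glutamate receptors, 3 probes could be tested and none passed. The AMPA subunit Gria3 read 35.1, 30.0 and 30.8 in REST shRNA and 32.8, 39.2 and 27.9 in control (log2 change -0.08, 95% interval -0.36 to 0.19; limma adjusted p = 0.653), and its 2 other probes were silent. The kainate subunit Grik2, which can form channels alone, read 16.8, 27.4 and 29.2 in REST shRNA and 26.3, 17.5 and 15.2 in control (0.14, -0.20 to 0.48; adjusted p = 0.537). Grik4, a kainate subunit that needs such a partner, read 33.2, 25.6 and 33.2 in REST shRNA and 24.0, 7.7 and 27.4 in control (0.34, -0.07 to 0.76; adjusted p = 0.204), and without control replicate 2, its lowest value, the change was 0.12. All 3 overlapped between groups.

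The 3 serotonin receptors that could be tested had positive log2 changes, and none passed. Htr3a, the only one of them that is an ion channel subunit, read 30.3, 26.9 and 24.7 in REST shRNA and 22.1, 10.5 and 14.9 in control. The groups did not overlap, yet the change of 0.38 (95% interval 0.09 to 0.67) missed the threshold (limma adjusted p = 0.0595), which it passed without control replicate 1 (0.49; adjusted p = 0.0328). Htr4, coupled to Gs, read 37.3, 58.1 and 67.2 in REST shRNA and 23.3, 38.6 and 54.6 in control (0.32, -0.22 to 0.86; adjusted p = 0.358), and without control replicate 1, its lowest value, the change was 0.084. Its other probe was silent. Htr5b, a rodent receptor, read 28.3, 48.3 and 23.1 in REST shRNA and 23.0, 21.1 and 16.7 in control (0.36, -0.04 to 0.76; adjusted p = 0.164), and without REST shRNA replicate 2, its highest value, the change was 0.15. Htr7, below the filter, was detected on 1 array of each group.

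**Figure D4:**
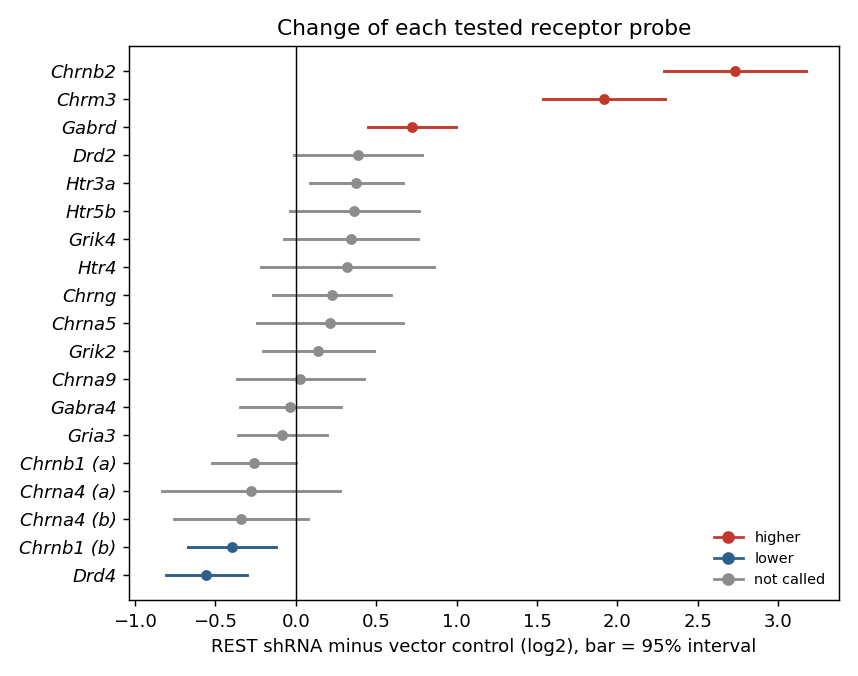
Log2 change (REST shRNA minus vector control) of the 19 tested receptor probes with its 95% interval, from limma; red passed as higher, blue as lower, grey did not pass. Chrnb2 (2.73) and Chrm3 (1.92) lie beyond 1.5, and the other 17 lie between -0.56 and 0.72.

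Genes that assemble and anchor receptors were described beside them. Of 38 such genes, 29 had a probe and 13 were tested, of which 3 rose, 3 fell and 7 did not pass (46.2% called, against 25.9% of all tested probes; median log2 change 0.09). A gene entered this count once, through the brightest of its probes where several were tested. The 25.9% counts every tested probe, so the shares differ in kind and were not compared by a test. The list was also chosen with earlier results of these data known, so its share called is a description only. Ric3, an endoplasmic reticulum chaperone for nicotinic receptors, had the largest rise of the list. It read 677.8, 651.8 and 724.4 in REST shRNA and 165.0, 115.3 and 152.6 in control, with no overlap (log2 change 2.12 ± 0.12, SE, n = 3 per group; limma adjusted p = 2.62e-05). A second Ric3 probe was detected on all 3 REST shRNA arrays and no control array (20.8, 16.4 and 25.3 in REST shRNA, 12.2, 3.8 and 6.0 in control). The filter admitted it only through its REST shRNA arrays, so its test adds no support. The 2 further probes were silent. Grip1, a scaffold that binds AMPA receptor tails, rose 2.02-fold (limma adjusted p = 0.000699). It read 280.3, 279.3 and 252.1 in REST shRNA and 128.3, 109.7 and 134.8 in control. A second Grip1 probe gave 1.97-fold, and the remaining 2 were detected on no array. Gphn, the scaffold of glycine and GABA-A receptors, rose 1.59-fold (adjusted p = 0.00393). Of its other probes 1 passed at 1.61-fold and 1 did not (1.24-fold; adjusted p = 0.0854).

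The falls in that list included Gabarap, which binds GABA-A receptors and autophagosomes, at 1670.1, 1565.5 and 1493.9 in REST shRNA and 2457.1, 2749.2 and 2352.3 in control (log2 change -0.68; limma adjusted p = 0.00353). Lynx1, a membrane-tethered brake on nicotinic receptors, read 19.4, 20.6 and 11.5 in REST shRNA and 41.5, 25.9 and 26.1 in control. Its log2 change was -0.49 (limma adjusted p = 0.0323), with 2 of the REST shRNA arrays detected, near the detection limit. Its other probe was detected on no array. The call was kept in 6 of 13 alternatives. It was lost in the authors' ratios (0.0618), with no filter (0.0518), with an offset of 50 (0.0550), with a trended robust variance (0.0526) and without REST shRNA replicate 1 or 3 or control replicate 1 (0.0560 to 0.105). The third was the synaptic adhesion protein Nlgn2 (-0.42; adjusted p = 0.0330), not called in the authors' ratios (0.203). In those ratios, or without REST shRNA replicate 1 or control replicate 1, 1 member of the list fell in place of 3.

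Genes that make, load and clear the transmitters gave few measurable members. Of 32, 29 had a probe and 10 were tested, of which 1 rose, 3 fell and 6 did not pass (40.0% called, against 25.9% of all tested probes; median log2 change -0.30). Here too a gene was counted once, through its brightest tested probe, so the shares differ in kind. This list was likewise chosen with earlier results of these data known, and its share called is a description only. Ddc, the decarboxylase of dopamine and serotonin synthesis, rose, with 581.0, 546.0 and 564.0 in REST shRNA and 416.4, 356.5 and 357.7 in control (1.45-fold; limma adjusted p = 0.00538). The vesicular glutamate transporter Slc17a7 fell, with 80.0, 66.3 and 48.9 in REST shRNA and 158.5, 153.7 and 133.4 in control (log2 change -1.06; adjusted p = 0.00173). The glycine transporter Slc6a9 (-0.47; adjusted p = 0.0148) and the glial glutamate transporter Slc1a3 (-0.34; adjusted p = 0.0427) fell less, and neither was called in the authors' ratios (0.0923 and 0.329). Slc6a9 also missed the threshold without REST shRNA replicate 3 (0.0519), and Slc1a3 without any single array other than REST shRNA replicate 1 (0.0595 to 0.121). The number lower was 1 without REST shRNA replicate 3. Slc32a1, which loads GABA and glycine into vesicles, had -0.72 and did not pass (adjusted p = 0.0581), but passed without REST shRNA replicate 2 (-0.98; adjusted p = 0.0135) and in the authors' ratios (0.0410).

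Cell type markers were set beside these results, since in bulk RNA fewer cells of a type and less RNA per cell cannot be told apart. All 10 embryonic stem cell markers were detected on every array, with summed intensities of 131379 to 139236 in REST shRNA and 144603 to 155212 in control. These and the other marker sums add non-normalized intensities over all probes of a list, with values below 0 counted as 0. The brightest probes weigh most, and the brightest stem cell markers, Dppa5a and Esrrb, did not pass (log2 change -0.02 and 0.09). Of the 10 markers Zfp42 rose, Pou5f1 and Fgf4 fell and 7 did not pass, where 12.8% of all tested probes rose and 13.1% fell. Marker genes were likewise called once each, at their brightest tested probe, whereas those shares count every tested probe. Of 12 neuronal markers 4 were detected on every array, of which Map2, Syn1 and Rbfox3 rose and Stmn2 fell (not called in the authors' ratios, limma adjusted p = 0.0879), with sums of 2395 to 2807 in REST shRNA and 2273 to 2678 in control. The other 8, among them Tubb3, Dcx, Snap25 and Gap43, were detected on no array at the probes examined. Neural progenitor markers summed to 36 to 77 in REST shRNA and 104 to 148 in control, glial markers to 120 to 180 and 149 to 256, and fibroblast markers to 3022 to 3438 and 4814 to 5607, REST shRNA first in each. Of the tested ones, 1 of 2, 0 of 2 and 4 of 5 fell and none rose, to be read against the same shares of all tested probes. Their part in the receptor results was not tested. Rest itself could not check the labels, since its 1 probe was detected on 0 arrays (mean intensity 0.633 ± 2.52 in REST shRNA and -0.0333 ± 0.603 in control, SD, n = 3 each).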

How the data were processed

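In the deposited table each probe has a linear intensity on each array that is not normalized per the file headers, with values below 0 on 25.3% to 26.3% of probes, so 0 is taken as background. A detection score deposited beside it rises with intensity, although its header calls it a p-value, so the detection p was taken as 1 minus that score. The authors' second deposited table holds a linear ratio per probe to a reference not given in the sources used here, and its log2 served as an alternative. Software behind both is not given in the sources used here. Mean intensity per array was 442 to 473.

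Groups and replicate numbers came from the sample titles, and column names were matched to them. Background was corrected by the normal-exponential model, with negative controls inferred from the detection p, and with an offset of 16. The corrected linear intensities were quantile normalized and then put on the log2 scale (limma 3.58.1, R 4.3.3). The offset draws the changes of dim probes towards 0. Probes detected (p under 0.05) on 3 or more of the 6 arrays were fitted with group as the only term, with Benjamini-Hochberg adjustment over all 12406. The fit and the motif search were tested on simulated data. With 3 arrays against 3, an exact permutation test of 1 gene cannot give a p below 0.1. A probe undetected throughout 1 group has its fold as a bound against the lowest detected level per array. The number of arrays limits the precision.

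Every tested receptor probe is named, with those below the filter detected on at least 2 arrays of a group, and the 5 list members with the smallest p. Nlgn2, Chrm4, Htr5a, Htr7, Chrna3, Chrnb4, Chrna10 and further probes of named genes were added after values were seen, as was the choice of the Chrnb2 and Chrm3 promoters. Receptor and list members were chosen with earlier results of these data known. Deviations of same-numbered arrays correlated at -0.0623, 0.0324 and 0.0413, so numbers were not taken as pairs. Alternatives were the authors' ratios, median scaling, no background correction, no filter, a stricter filter, an offset of 50, a trended robust variance, a replicate block and each array left out. Plain intensity ratios, and these settings for list members, were added after seeing the data. Gene symbols came from the platform annotation (23978 of 25697 probes) and promoter sequences from RefSeq (GRCm38.p6). Protein sequences were not used here.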

Additional observations from a re-analysis of the deposited data

How the results depend on the processing

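Chrnb2, Chrm3 and Gabrd stayed higher and Drd4 lower, past the threshold, under each alternative in which they were tested. The log2 change ranged from 1.80 to 2.87 for Chrnb2, 1.35 to 2.06 for Chrm3, 0.33 to 1.04 for Gabrd and -0.61 to -0.37 for Drd4, the smallest with an offset of 50. With a detection p under 0.01 required on all 6 arrays, 6 receptor probes were left and 0 were higher, since the filter removed the 3 that rose. The number of receptor probes lower was 1 in the authors' ratios and 1 with no filter, in place of 2. Leaving out each array in turn gave 3 or 4 higher and 1 or 2 lower, with 1030 to 1356 higher and 1005 to 1365 lower over all probes, and lower counts without control replicate 2 or REST shRNA replicate 3. The authors' ratios gave 907 lower over all probes. With the replicate block, 3 receptor probes were higher and 2 lower, and it changed no receptor call. At a detection p under 0.01, 11 receptor probes were detected on REST shRNA arrays 2 and 3, 10 on control array 1 and 9 on control array 2. Members of the receptor partner list that fell numbered 1 in the authors' ratios and 1 to 3 with an array left out, and those of the transmitter list 1 to 3. With the block, 2 and 3 fell, and Slc32a1 passed while Slc1a3 did not (adjusted p = 0.0403 and 0.0786). The sign turned only for probes that never passed: Gabra4 had 0.010 in the authors' ratios and -0.12 to 0.095 with an array left out, Chrna9 -0.15 to 0.22, Chrna5 -0.029 to 0.36 and Gria3 -0.15 to 0.022. The cause of these shifts was not tested. Low signal limits most of these genes, since 89 of 108 receptor probes failed the filter.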
